A study of Mus musculus with 577 samples.

Results

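Notch signalling between the oocyte and its granulosa cells was followed through 10 genes: the ligand genes Jag1 and Jag2, the receptor genes Notch1, Notch2 and Notch3, the receptor-modifying glycosyltransferase gene Lfng, and the target genes Hes1, Hey1, Hey2 and Heyl. The members were chosen by symbol, and all 10 of them, among 22060 protein-coding genes, were found in each of the 8 gene count tables. The study isolated single cells from frozen mouse ovary sections by laser capture microdissection (LCM), in which a laser cuts single cells out under a microscope, and amplified their cDNA with several single-cell RNA-seq chemistries. DRaqL is the study's lysis step, in which a detergent frees the RNA and is then quenched in the same tube. Of 577 samples, 562 were libraries of gene counts and 15 held counts of exons or splice junctions. Ovaries came from female mice aged 8 weeks, and ovary sections were cut at 15 µm. The strain and genotype of most libraries were not given in the sources used here. The paper states that its amplification methods for ovary sections, with and without DRaqL or protease, were compared on sections of the same ovary. Agreement between those chemistries is therefore not agreement between mice. The number of mice behind the other libraries was mostly not given. No allele was named that distinguished the groups. A cAMP analog was in the medium of the freshly dissociated ovarian cells and was not used for those cut by LCM.

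Oocytes were labelled by the stage of their follicle, as primary or as secondary to early antral (here secondary-antral). Both stages were present in 4 chemistries: DRaqL-SC3-seq, a 3′-end method (30 secondary-antral and 14 primary oocytes), SMART-Seq v4 3′DE without DRaqL (11 and 7), DRaqL-SMART-Seq v4 (9 and 6), and a protease-based Smart-seq2 on sections fixed in formalin for 24 h (7 and 5). A further 16 SC3 libraries were pairs of sections through 8 oocytes. Granulosa cells were labelled by position, as neighboring or non-neighboring the oocyte, and both positions were present in 8 single-cell data sets. These were SC3 (31 neighboring and 26 non-neighboring cells), SMART-Seq v4 (17 and 17), DRaqL-SMART-Seq v4 (20 and 19), formalin (12 and 12), LCM-seq, which is Smart-seq2 on LCM cells without DRaqL (17 and 20), DRaqL-Smart-seq2 (15 and 19), and a pair of data sets from 1 proestrus mouse. In that mouse, cells of one ovary were taken by LCM with DRaqL-Smart-seq2 (8 oocytes, 35 and 35 granulosa cells), and cells of the other were freshly dissociated, with a cAMP analog in the medium (14 grown oocytes, 14 and 21 granulosa cells). For the dissociated cells, neighboring and non-neighboring stand for attached to the oocyte or not, rather than for a place in a section. SC3-seq was also run on granulosa pools, each of 10 cells of 1 position (7 pools per position), on the whole granulosa of 7 follicles (bulk), and on mouse embryonic stem cells (mESCs) grown in 2i and LIF, freshly lysed (45) or cut by LCM (36). Only morphologically normal follicles were sampled. The 3 SC3 granulosa cells labelled in a different form were kept apart.

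Libraries held 12748 to 17506401 reads on protein-coding genes, with a median of 626534. Granulosa labels were checked with 10 granulosa genes, whose summed level had medians of 4589 to 23158 RPM (reads scaled to the library's total on protein-coding genes) in the groups of single granulosa cells and 72.0 to 1022 RPM in the groups of oocytes. The 14 oocyte genes of the check, among them Gdf9, Bmp15 and Zp3, had medians of 4273 to 49874 RPM in the oocyte groups. They were also present in granulosa cells, unequally by position, and the values stand beside each result they touch. Each single-cell library is 1 cell, and no label ties a cell to a mouse, so single-cell groups are described by their spread over cells with no test. The 10-cell pools carried the only test. Whether they came from separate mice is not stated, so its p-values measure the spread between these pools, which may be technical.

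In the Notch pathway, a ligand such as Jagged on one cell binds a Notch receptor on the cell it touches. The receptor is then cut by the gamma-secretase complex, and its intracellular part joins the DNA-binding protein RBPJ to switch on genes such as those of the HES and HEY repressors. In the ovary, Jagged ligands of the oocyte and Notch receptors of granulosa cells are known as a route of contact between both cell types during follicle assembly and growth.

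The 3 promoters shown here belong to a ligand gene of the oocyte, the receptor gene read in most libraries and a target gene of granulosa cells. They are RefSeq windows on GRCm38 (7 of 10 members were in the promoter table), shortened to the bases before the annotated gene. They were searched on both strands for TGGGAA, the core letters bound by RBPJ, and for CACGTG, the E-box read by HEY and HES factors. Capitals mark a match. Jag1 is at chr2:137116645-137116770 on the minus strand, Notch2 at chr3:98013288-98013526 on the plus strand and Hey2 at chr10:30842802-30843033 on the minus strand.
Jag1: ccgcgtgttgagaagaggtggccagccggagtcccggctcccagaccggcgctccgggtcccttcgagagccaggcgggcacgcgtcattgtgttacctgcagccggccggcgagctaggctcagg
Notch2: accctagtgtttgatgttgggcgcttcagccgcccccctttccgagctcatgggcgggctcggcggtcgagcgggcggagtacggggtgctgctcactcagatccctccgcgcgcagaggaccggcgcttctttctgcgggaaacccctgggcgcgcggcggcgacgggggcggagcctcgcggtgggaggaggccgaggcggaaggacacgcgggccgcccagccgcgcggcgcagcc
Hey2: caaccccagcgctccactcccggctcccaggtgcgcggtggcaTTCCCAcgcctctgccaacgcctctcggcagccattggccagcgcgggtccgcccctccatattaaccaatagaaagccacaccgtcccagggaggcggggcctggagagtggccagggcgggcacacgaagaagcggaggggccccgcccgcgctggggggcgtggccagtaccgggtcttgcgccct
The letters TTCCCA, which are TGGGAA on the other strand, were present in the Hey2 window, and neither motif was present in the Jag1 or Notch2 window. Of the windows not printed, that of Lfng held 2 matches of TGGGAA and 1 of CACGTG, and that of Notch3 held neither. The windows of Jag2 and Notch1 had no bases before the annotated gene. Among 32851 promoters, TGGGAA or its reverse was present in 21.6% and CACGTG in 6.02% of the 250-base upstream windows, which are longer than the windows printed here. A match is a description and not a binding site.

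The ligand genes Jag1 and Jag2 were higher in oocytes, and both were at low levels or at 0 in most granulosa cells. Levels are given as RPM, and differences as differences in mean log2(RPM + 1), which understate the change of low genes. Between oocytes and granulosa cells, Jag1 was higher in oocytes in 6 of 6 data sets, by 5.55 to 7.81. Jag2 was higher in 6 of 6, by 3.88 to 6.45, and Hey1, a HEY-family target gene, in 6 of 6, by 1.97 to 3.17. Notch1, a receptor gene, reached a mean of 1 log2 unit in 5 of 6 data sets, in each of them in the oocytes only. There it was higher in oocytes by 0.88 to 3.12, but the cutoff on the level fixed this direction in advance. Notch2 was lower in oocytes in 6 of 6, by 0.25 to 2.27, but with a pseudocount of 0.1 it was higher in SC3 (0.34) and in the dissociated cells (0.14), while Hey2 and Heyl were each lower in 5 of 6 (Heyl in SC3 was higher, by 0.44, with that pseudocount). Over the same data sets, 71.4% of genes in SC3, 73.1% in SMART-Seq v4, 51% in DRaqL-SMART-Seq v4, 53.1% in formalin, 63.3% in the same-mouse LCM and 61% in the dissociated cells lay more than 1 log2 unit higher in oocytes. Members past that line numbered 5 of 8, 4 of 7, 3 of 8, 5 of 8, 4 of 8 and 4 of 8. The members' share was above the background in formalin and below it in the other 5 data sets. Granulosa libraries were shallower than oocyte libraries, with medians of 544072 to 585673 reads against 1498328 to 1553492 in SC3, and the part of depth in these shares was not tested.

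**Figure D1:**
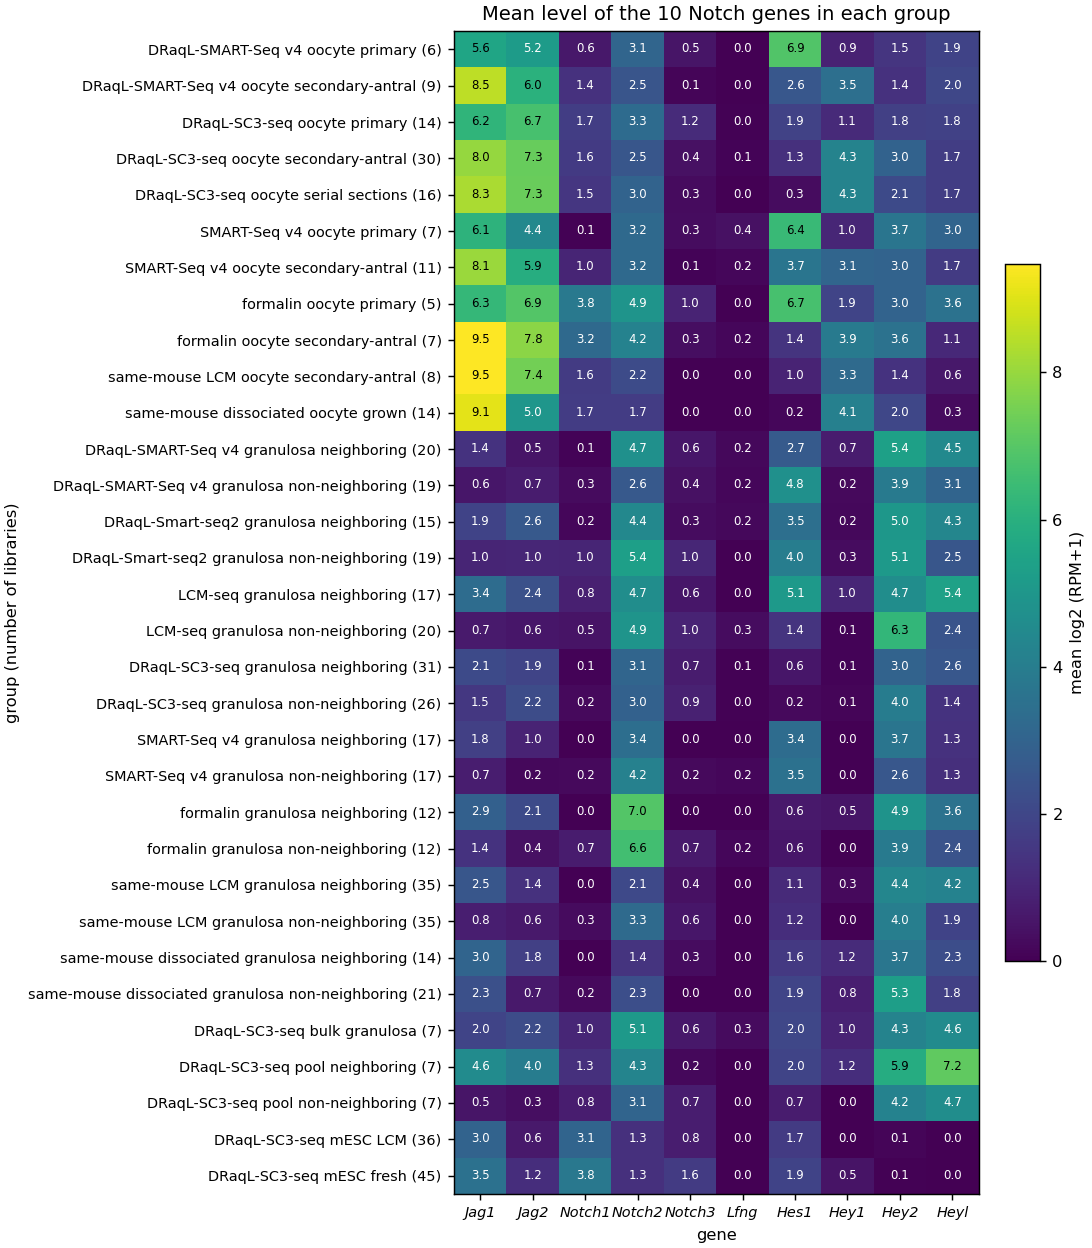
Mean log2(RPM + 1) of each of the 10 members (columns) in each group of more than 3 libraries (rows). Brighter cells mark higher means. Jag1 reached 9.48 in formalin secondary-antral oocytes, whereas the mean of Lfng was at most 0.44 in each group.

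The heat map of mean levels shows the order of the groups for each member. For Jag1, the 7 groups of secondary-antral, serially sectioned or grown oocytes came first (means of 7.98 to 9.48 on the log2(RPM + 1) scale), followed by the 4 groups of primary oocytes (5.56 to 6.29), the neighboring pools (4.56) and the fresh mESCs (3.53). Of the steps between neighbours in this order of 32 groups, 1 exceeded the larger SD of its pair, that from dissociated oocytes (9.08) to DRaqL-SMART-Seq v4 oocytes (8.54). For the other 9 members, 0 steps did. Levels of different chemistries were normalized separately, so the order across them is a description.

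Jag1, the gene of a Jagged ligand that sits in the membrane of the sending cell, was higher in secondary-antral than in primary oocytes in all 4 chemistries. In SC3, Jag1 ranged from 88.6 to 495 RPM with a median of 276 in 30 secondary-antral oocytes, and from 21.8 to 194 with a median of 83.3 in 14 primary oocytes. In the formalin libraries, the 7 secondary-antral oocytes ranged from 548 to 931 RPM with a median of 719, and the 5 primary oocytes had 11.9, 11.02, 348.6, 270.0 and 201.9 RPM. The stages overlapped in SC3 and did not overlap in the formalin libraries. The mean log2(RPM + 1) was 7.98 ± 0.66 against 6.21 ± 1.02 in SC3 (SD, n = 30 and 14), a difference of 1.77, and 9.48 ± 0.23 against 6.29 ± 2.44 in formalin (SD, n = 7 and 5), a difference of 3.18. SMART-Seq v4 gave 1.92, from medians of 294 and 71.3 RPM, and DRaqL-SMART-Seq v4 gave 2.98, from medians of 385 and 93.6 RPM. Each of these differences exceeded the SD pooled over both stages of its chemistry. When the reads of all SC3 oocytes of a stage were summed, Jag1 stood at 278 RPM (exact Poisson 95% interval 273 to 283) in secondary-antral and 93.3 RPM (89.3 to 97.6) in primary oocytes. These intervals cover counting error only.

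Jag2, the second Jagged ligand gene, was also higher at the later stage in all 4 chemistries, by smaller amounts. SC3 oocytes held 74.1 to 361 RPM of Jag2 (median 150) at the secondary-antral stage and 26.9 to 510 (median 104.6) at the primary stage, so the groups overlapped nearly throughout. The differences were 0.56 in SC3, 1.48 in SMART-Seq v4, 0.83 in DRaqL-SMART-Seq v4 and 0.88 in formalin on the log2(RPM + 1) scale. They exceeded the SD pooled over both stages in 2 of 4 chemistries.

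**Figure D2:**
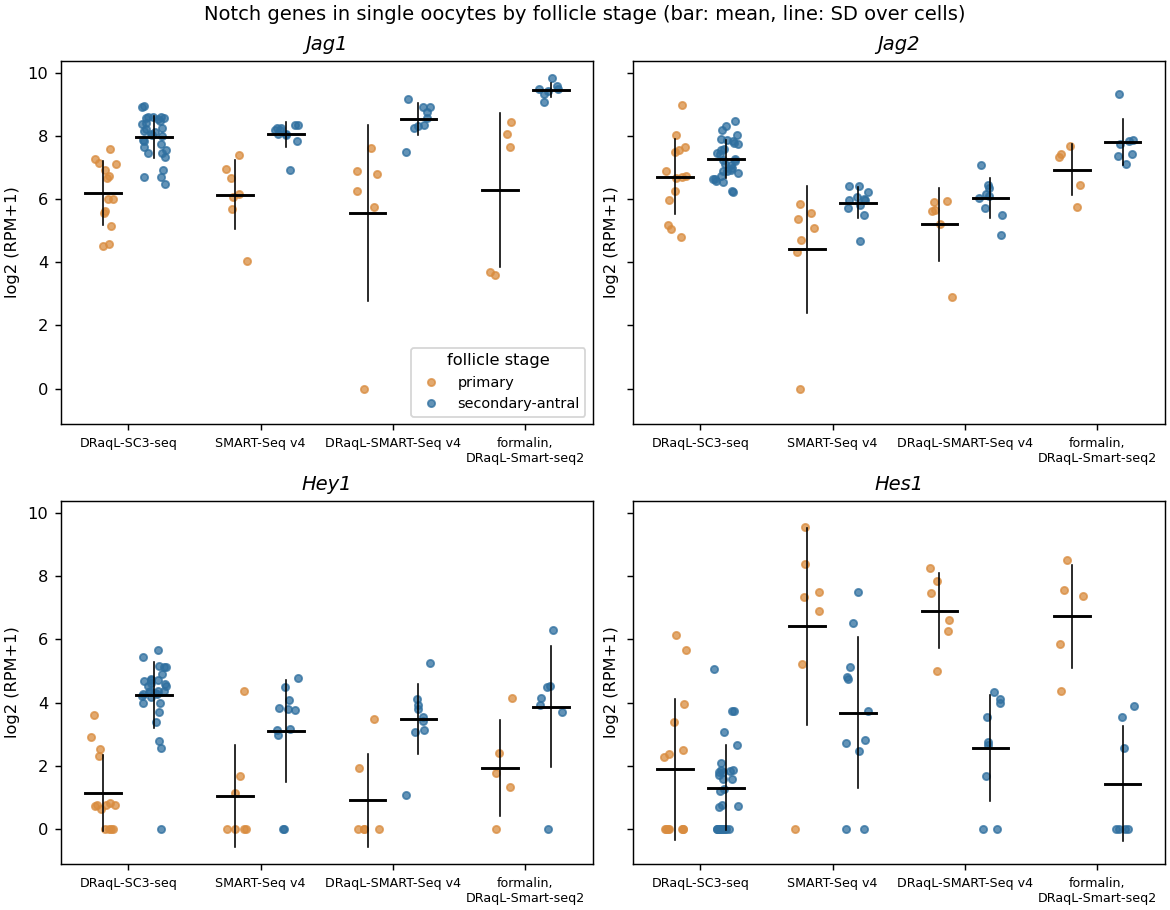
Jag1, Jag2, Hey1 and Hes1 in each oocyte as log2(RPM + 1), by follicle stage in 4 chemistries (points, single oocytes; bar, mean; line, SD). Jag1 and Hey1 lie higher in secondary-antral oocytes in all 4 chemistries, and Hes1 lies lower, with no overlap of the stages in DRaqL-SMART-Seq v4 and formalin.

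The plot of single oocytes shows that the target genes Hey1 and Hes1 went in opposite directions. Hey1 had a median of 19.4 RPM in secondary-antral and 0.673 RPM in primary SC3 oocytes, a difference in mean log2(RPM + 1) of 3.13 (4.25 ± 1.05 against 1.12 ± 1.20, SD, n = 30 and 14). In the formalin libraries the 5 primary oocytes had 4.32, 1.50, 0, 2.43 and 16.8 RPM of Hey1 against a secondary-antral median of 16.5 RPM, so a primary oocyte lay within the later range. The Hey1 differences in SMART-Seq v4, DRaqL-SMART-Seq v4 and formalin were 2.06, 2.58 and 1.94. Hes1, a HES-family repressor gene, was lower at the secondary-antral stage by 0.58 in SC3, 2.74 in SMART-Seq v4, 4.35 in DRaqL-SMART-Seq v4 and 5.31 in formalin. In DRaqL-SMART-Seq v4, Hes1 ranged from 0 to 19.3 RPM (median 5.66) in 9 secondary-antral oocytes and from 31.1 to 307 RPM (median 136) in 6 primary oocytes. In formalin it ranged from 0 to 13.7 RPM in 7 secondary-antral oocytes, and the 5 primary oocytes had 19.4, 365.5, 165.5, 187.3 and 57.2 RPM. The stages did not overlap in either of these chemistries, whereas in SC3 their medians were 1.34 and 1.92 RPM.

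Granulosa genes moved with stage as well. The summed level of the 10 granulosa genes had a median of 584 RPM in primary and 153 in secondary-antral SC3 oocytes, 677 and 439 in SMART-Seq v4, 423 and 218 in DRaqL-SMART-Seq v4, and 1022 and 631 in formalin. Of the 10 genes, 9 or 10 had reads in each of these groups, with Inhbb at 0 in primary SC3 oocytes and Cyp19a1 at 0 in primary SMART-Seq v4 and formalin oocytes. Their part in the Hes1 values was not tested. The oocyte genes moved the other way, with a summed median of 9447 RPM in primary and 36922 RPM in secondary-antral SC3 oocytes. Divided by the 14 oocyte genes, Jag1 was at 8.70 RPM per 1000 RPM in primary and 7.75 in secondary-antral SC3 oocytes, at 9.97 and 9.83 in SMART-Seq v4, 18.6 and 14.5 in DRaqL-SMART-Seq v4, and 29.1 and 24.9 in formalin. On the same scale Jag2 was at 13.9 and 4.75 in SC3, 3.69 and 2.20 in SMART-Seq v4, 8.67 and 2.61 in DRaqL-SMART-Seq v4, and 23.5 and 8.93 in formalin. Relative to the oocyte genes, neither ligand gene was higher at the later stage in any of the 4 chemistries. The paper names several of the 14 genes, Gdf9 and Bmp15 among them, as strong contributors to its axis of oocyte growth. A gene that rises with stage by less than they do falls on this scale, so these ratios are a description.

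**Figure D3:**
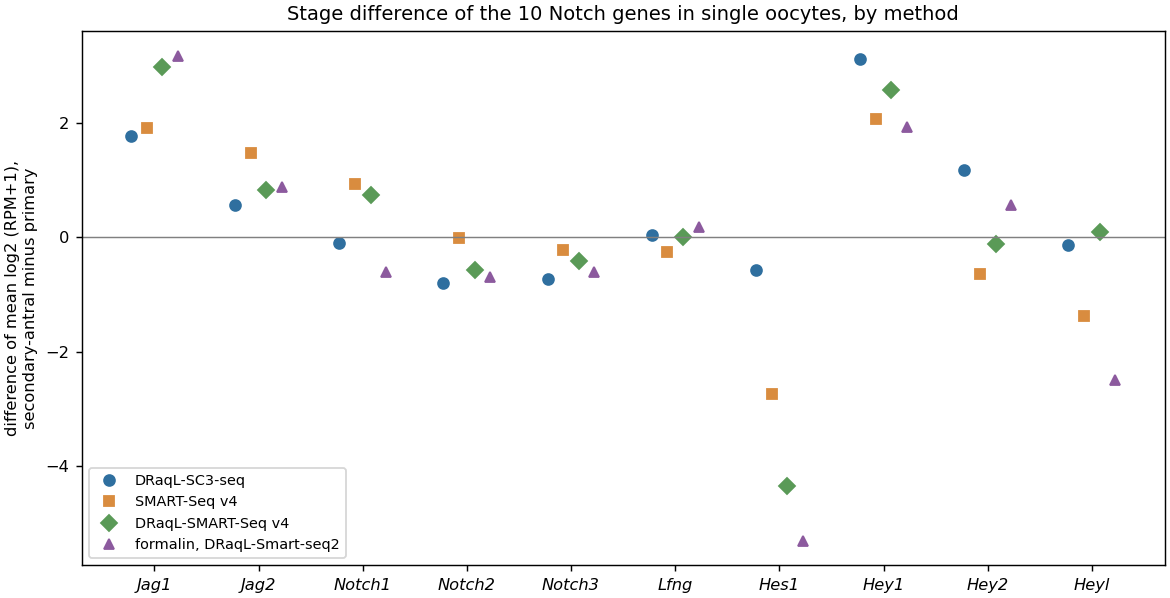
Differences in mean log2(RPM + 1), secondary-antral minus primary oocytes, for the 10 members in 4 chemistries. Jag1, Jag2 and Hey1 are above 0 in all 4 and Hes1 is below 0 in all 4, while Hey2 has both signs.

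The remaining members differed less between stages or changed sign with the chemistry, as the plot of stage differences shows. Notch2 differed by -0.80, -0.00, -0.58 and -0.70 in SC3, SMART-Seq v4, DRaqL-SMART-Seq v4 and formalin, within the SD in each. The differences of Hey2 were 1.17, -0.65, -0.11 and 0.56, and those of Heyl -0.14, -1.37, 0.09 and -2.50. Members more than 1 log2 unit higher at the secondary-antral stage were 3 of 9 in SC3 (background 32% of genes), 3 of 7 in SMART-Seq v4 (33%), 2 of 8 in DRaqL-SMART-Seq v4 (35.2%) and 2 of 8 in formalin (27%). Members more than 1 log2 unit lower were 0 of 9 (background 14.9%), 2 of 7 (15.7%), 1 of 8 (22.2%) and 2 of 8 (24.7%). Both sets of counts lie near their backgrounds. The median difference over all genes was 0.33, 0.35, 0.29 and -0.02.

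Stage was tied to the handling of the oocytes in some chemistries. In DRaqL-SMART-Seq v4 each library pool held oocytes of 1 stage, so stage and library pool cannot be told apart. In SMART-Seq v4, 1 library pool held both stages (1 secondary-antral and 7 primary oocytes). Within it, the differences were 0.80 for Jag1, 1.57 for Jag2, -1.02 for Hey1 and 1.10 for Hes1, so Hey1 and Hes1 had the opposite sign there, in a comparison that rests on 1 secondary-antral oocyte. In formalin, 1 library pool held all 7 secondary-antral and 5 primary oocytes, so its differences within a pool were the ones already given for the data set, 3.18 for Jag1, 0.88 for Jag2, 1.94 for Hey1 and -5.31 for Hes1.

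The balance of the ligands varied between oocytes. The per-oocyte difference log2(Jag1) minus log2(Jag2), each from RPM + 1, was 0.70 ± 1.10 in SC3 secondary-antral oocytes (SD, n = 30; Jag1 higher in 21 of 30) and -0.51 ± 1.70 in primary oocytes (SD, n = 14; 6 of 14). It was positive in each of the 11 SMART-Seq v4, 9 DRaqL-SMART-Seq v4 and 7 formalin secondary-antral oocytes, and in 6 of 7, 5 of 6 and 3 of 5 primary oocytes. Over the 30 SC3 secondary-antral oocytes, Jag1 and Jag2 were inversely related (Pearson's r = -0.49, Spearman's rho = -0.56), and over the 14 primary oocytes less so (r = -0.18, rho = -0.29). Jag2 and Hey1 went together over the 30 oocytes (r = 0.44, rho = 0.55). Since these RPM values are not per length, the sign of the difference is not a ranking of the genes, and only its change between oocytes is read. The correlations are descriptions over oocytes that share a chemistry and a total per library, which ties any pair of shares.

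The same-mouse data sets differed in Jag2 more than in Jag1. Jag1 was at 588 to 775 RPM (median 712) in 8 oocytes cut by LCM and at 309 to 919 RPM (median 560) in 14 dissociated grown oocytes. Jag2 was at 110 to 359 RPM (median 179) in the LCM oocytes and at 9.66 to 68.3 RPM (median 32.9) in the dissociated oocytes, with no overlap. The per-oocyte difference log2(Jag1) minus log2(Jag2) averaged 2.01 in the LCM oocytes and 4.08 in the dissociated oocytes. The chemistry (with and without DRaqL), the route of isolation, the cAMP analog, the ovary and the class of oocyte all differed between these groups and cannot be told apart.

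Serial sections gave the error of a single oocyte. In 16 libraries from 8 oocytes, Jag1 ranged from 187 to 516 RPM. Sections of the same oocyte differed by a median of 0.28 and at most 0.76 log2 units, and the SD within an oocyte (0.28) was as large as that between oocytes (0.29). Jag2 ranged from 118 to 234 RPM, with SDs of 0.21 within and 0.26 between oocytes. The SD within an oocyte is that of single sections, and the SD between oocytes is that of means over both sections, so the SDs are not directly comparable. Whether oocytes of this set can be ranked by their ligand levels was not tested.

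Exon counts from 5 oocytes sequenced with Y-shaped adapters gave levels per length of single exons. The last exon of Jag1 (exon 26 of 26, chr2:137081456-137083481 on the minus strand of GRCm38, 2026 bases of which 1571 lie in the untranslated region) took 5189 of the 5246 Jag1 exon reads in oocytes. Its level was 141.2, 91.8, 41.5, 78.6 and 42.2 CPM (counts scaled to the library total) per kb in the 5 oocytes. The last exon of Jag2 (exon 26 of 26, chr12:112908590-112909385 on the minus strand, 796 bases with no untranslated region wholly inside it) was at 22.4, 36.2, 104.2, 32.5 and 31.9 CPM per kb. The annotated Jag2 gene runs on to 112907819, and untranslated sequence that crosses the edge of the exon was not counted. The Jag1 exon averaged 79.1 ± 41.2 and the Jag2 exon 45.4 ± 33.2 CPM per kb (SD, n = 5), and their ranges overlapped. The exons differ in length and may differ in the untranslated sequence they hold, so these values do not rank the genes. The top exon of Hey1 averaged 5.85 ± 4.05 CPM per kb, those of Hes1 and Hey2 1.01 and 1.05, those of Notch1, Notch2 and Heyl 0.87, 0.25 and 0.31, and Notch3 and Lfng had 0 oocyte reads. Jag2 alone among the members had splice junctions in oocytes, 7 junctions with 84 reads. The other members had 0 junctions, Jag1 among them. The libraries labelled as mESCs averaged 4.79 CPM per kb for Jag1 and 0.335 for Jag2.

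Among granulosa cells, the target gene Heyl was higher in neighboring than in non-neighboring cells in 8 of 8 data sets. In LCM-seq, Heyl ranged from 0 to 405 RPM (median 68.7) in 17 neighboring cells and from 0 to 127 RPM (median 1.44) in 20 non-neighboring cells, and was read in 16 and 10 of them. In the same-mouse LCM cells it ranged from 0 to 540 RPM (median 30.0) in 35 neighboring cells and from 0 to 484 RPM (median 0) in 35 non-neighboring cells. The positions overlapped in both data sets, with more cells at 0 away from the oocyte. The differences in mean log2(RPM + 1) were 2.97 in LCM-seq (5.41 ± 1.96 against 2.45 ± 2.69, SD, n = 17 and 20), 2.29 in the same-mouse LCM, 1.79 in DRaqL-Smart-seq2, 1.44 in DRaqL-SMART-Seq v4, 1.162 in SC3, 1.12 in formalin, 0.47 in the dissociated cells and 0.06 in SMART-Seq v4. Only that of LCM-seq exceeded the larger SD of its pair. Within library pools, Heyl was higher in neighboring cells in 4 of 4 pools of LCM-seq, 4 of 4 of DRaqL-Smart-seq2, 6 of 7 of the same-mouse LCM, 2 of 2 runs of cell numbers of SC3 and 3 of 4 pools of DRaqL-SMART-Seq v4. It was higher in 2 of 4 pools of SMART-Seq v4, 1 of 2 of formalin and 2 of 3 of the dissociated cells. The direction of Heyl was not kept under every scaling: the log2 ratio of summed RPM was -1.64 in SMART-Seq v4 and -0.49 in DRaqL-Smart-seq2, where 1 non-neighboring cell reached 682 RPM, and the difference in the dissociated cells was -1.40 over libraries of at least 200000 reads.

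The ligand gene Jag1 was likewise higher in neighboring granulosa cells in 8 of 8 data sets, by 0.60 to 2.66. In LCM-seq it ranged from 0 to 147 RPM (median 30.6) in neighboring and from 0 to 26.95 RPM (median 0) in non-neighboring cells, with overlap at the low end. Within library pools, Jag1 was higher in neighboring cells in 4 of 4 pools of LCM-seq, 5 of 7 of the same-mouse LCM, 3 of 4 each of DRaqL-Smart-seq2 and SMART-Seq v4 (with and without DRaqL), 2 of 2 of formalin and 2 of 3 of the dissociated cells, and it differed by -0.54 and 3.54 in the 2 runs of SC3 cell numbers. The direction of Jag1 turned in SC3 with the log2 ratio of summed RPM (-0.33) and in the dissociated cells over libraries of at least 200000 reads (-1.27). Oocyte RNA moved with position too. The 14 oocyte genes summed to a median of 1545 RPM in neighboring and 29.8 in non-neighboring LCM-seq cells, 2943 and 64.2 in SC3, 350 and 124 in the same-mouse LCM, and 157 and 155 in the dissociated cells. Cells in which this sum reached 10% of the median oocyte numbered 13 of 31 neighboring and 3 of 26 non-neighboring in SC3, and 7 of 17 and 0 of 20 in LCM-seq. LCM-seq and DRaqL-Smart-seq2 had no oocytes of their own, so their line was taken from the SC3 oocytes, which are of another chemistry. In the other 6 data sets they numbered 2 to 4 neighboring cells and 0 to 2 non-neighboring cells.

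**Figure D4:**
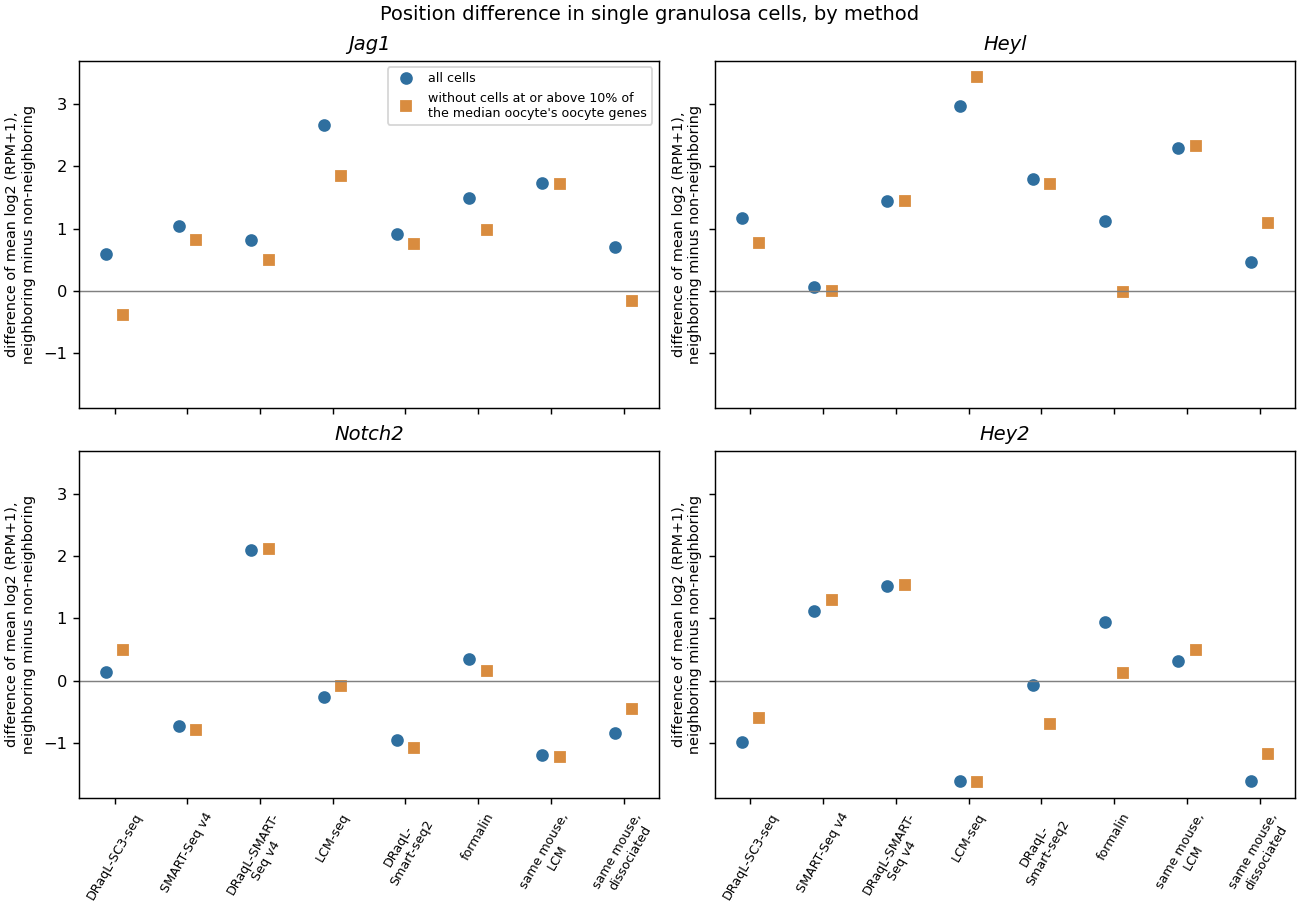
Differences in mean log2(RPM + 1), neighboring minus non-neighboring granulosa cells, for Jag1, Heyl, Notch2 and Hey2 in 8 data sets, with all cells and without the cells whose oocyte RNA reached 10% of the median oocyte. For Jag1 the SC3 and dissociated differences fall below 0 without those cells, and for Heyl the LCM-seq difference goes from 2.97 to 3.43.

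The plot of position differences sets both versions side by side. Without the cells rich in oocyte RNA, the Jag1 difference was -0.38 in SC3, -0.17 in the dissociated cells and 0.50 to 1.84 in the other 6 data sets. For Heyl it was 3.43 in LCM-seq, 2.33 in the same-mouse LCM, 1.71 in DRaqL-Smart-seq2, 1.44 in DRaqL-SMART-Seq v4, 1.08 in the dissociated cells, 0.77 in SC3, 0.00 in SMART-Seq v4 and -0.01 in formalin. Among SC3 neighboring cells, Jag1 was read in 6 of 18 cells below that line and in 10 of 13 at or above it (means of 1.06 and 3.63 log2). Heyl was read in 9 of 18 and 10 of 13 (2.34 and 2.85). Per 1000 RPM of the oocyte genes, the mean Jag1 level was 7.45 RPM in SC3 neighboring cells and 7.75 in SC3 secondary-antral oocytes, but 32.9 in SC3 non-neighboring cells. In the same order, the values were 16.1, 9.83 and 17.9 in SMART-Seq v4, and 10.0, 14.5 and 110.7 in DRaqL-SMART-Seq v4. They were 19.0, 24.9 and 34.6 in formalin, and 16.6, 27.9 and 3.82 in the same-mouse LCM. The dissociated cells, with grown oocytes, gave 15.5, 16.8 and 44.7, so the data sets had no common order.

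The receptor gene Notch2 was read in 435 of the 562 gene count libraries and its group mean on the log2(RPM + 1) scale reached 1 in 34 of 34 groups. Its highest mean was 6.95, in formalin neighboring cells, where it ranged from 32.7 to 444 RPM (median 134) against 18.1 to 301 (median 95.6) in non-neighboring cells. Notch2 had no common direction by position: it was higher in neighboring cells in 3 data sets and lower in 5, between -1.18 and 2.098. Within library pools it was lower in neighboring cells in 7 of 7 pools of the same-mouse LCM and higher in 4 of 4 pools of DRaqL-SMART-Seq v4. The target gene Hey2 was higher in 4 and lower in 4, between -1.61 and 1.53. Within pools, Hey2 was lower in neighboring cells in 4 of 4 pools of LCM-seq and higher in 4 of 4 of DRaqL-SMART-Seq v4. In DRaqL-SMART-Seq v4, 6 genes of theca and interstitial cells summed to a median of 6.86 RPM in neighboring and 558 RPM in non-neighboring cells, and 6 genes of pericytes and smooth muscle to 3.36 and 120 RPM. The part of these cells in the Notch2 and Hey2 values was not tested.

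The other members were mostly low in granulosa cells. Among the 6 data sets in which the mean of Hes1 reached 1 log2 unit at either position, it was higher in neighboring cells in LCM-seq alone. There it was higher by 3.72 (medians of 55.7 and 0 RPM), and it was lower in the other 5. In LCM-seq it was higher in 4 of 4 library pools. Jag2 was higher in neighboring cells in 5 of the 6 data sets that reached this level. Some, such as LCM-seq and formalin, reached it in neighboring cells alone, which favors that direction. SMART-Seq v4 and DRaqL-SMART-Seq v4 did not reach it. Within their library pools, Jag2 was higher in neighboring cells in 2 of 4 and 1 of 4, and lower in 1 and 2. Notch1 did not reach a mean of 1 log2 unit at either position in any data set, Notch3 reached it in 1, and Hey1 in 2. Lfng had 59 reads in 29 of 562 libraries.

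Members more than 1 log2 unit higher in neighboring cells were 1 of 5 in SC3 (background 5.33% of genes), 2 of 5 in SMART-Seq v4 (11.4%), 3 of 5 in DRaqL-SMART-Seq v4 (10.6%) and 3 of 5 in formalin (21.8%). They were 4 of 7 in LCM-seq (20.3%), 2 of 7 in DRaqL-Smart-seq2 (13.7%), 2 of 6 in the same-mouse LCM (8.31%) and 1 of 7 in the dissociated cells (4.79%). Heyl was past the line in 6 of the 8 data sets. Members more than 1 log2 unit lower in neighboring cells were 0 of 5 in SC3 (background 14.1%), 0 of 5 in SMART-Seq v4 (20%), Hes1 alone of 5 in DRaqL-SMART-Seq v4 (17.4%) and 0 of 5 in formalin (12.7%). They were Hey2 alone of 7 in LCM-seq (7.45%), 0 of 7 in DRaqL-Smart-seq2 (8.34%), Notch2 alone of 6 in the same-mouse LCM (12%) and Hey2 alone of 7 in the dissociated cells (46.9%). A member was counted when its mean reached 1 log2 unit at either position, and some, such as Jag1 and Jag2 in LCM-seq, reached it in neighboring cells alone, so these counts are a description.

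**Figure D5:**
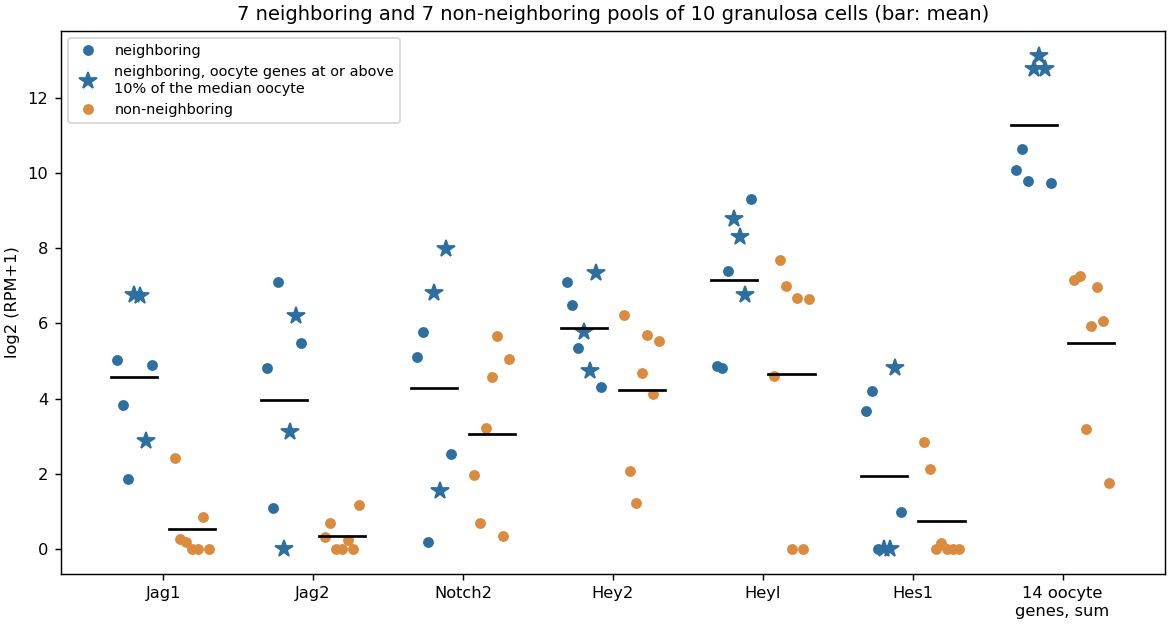
log2(RPM + 1) of 6 members and of the sum of 14 oocyte genes in every 10-cell granulosa pool, 7 of them neighboring and 7 non-neighboring. Stars mark neighboring pools 4, 5 and 6, whose oocyte-gene sum reached 10% of the median oocyte. Jag1 lies higher in the neighboring pools, with an overlap at the low end.

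The pools of 10 cells were tested with edgeR's quasi-likelihood test on the read counts, with Benjamini-Hochberg adjustment over 9704 genes. In the plot of pools, Jag1 ranged from 2.61 to 107.9 RPM (median 28.9) in 7 neighboring pools and from 0 to 4.32 RPM (median 0.131) in 7 non-neighboring pools. The neighboring pools held 1488 Jag1 reads and the non-neighboring pools 23, with an overlap between neighboring pool 3 and non-neighboring pool 1. The fitted log2 fold change was 5.58 ± 1.58 (SE), with p = 0.00211 before and 0.247 after adjustment in edgeR's quasi-likelihood test, so Jag1 did not pass the threshold of 0.05. DESeq2 called Jag1 (log2 fold change 5.63, adjusted p = 0.000652). With other filters and scalings or 1 pool left out, the adjusted p of Jag1 in edgeR lay between 0.0574, without non-neighboring pool 1, and 0.512, without neighboring pool 5.

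Of the 10 members, 4 passed the filter on low counts in the pools, 0 were called in edgeR against a background of 0.453% of genes, and 1 (Jag1) had an unadjusted p under 0.05 against 4.14%. Heyl ranged from 26.8 to 628 RPM (median 166) in neighboring and from 0 to 204 RPM (median 98.4) in non-neighboring pools, a log2 fold change of 1.57 ± 1.10 (SE). Hey2 ranged from 18.8 to 161 RPM (median 53.6) against 1.31 to 73.7 (median 24.5), with 1.18 ± 0.87, and Notch2 from 0.137 to 250 RPM (median 33.3) against 0.262 to 49.8 (median 8.25), with 1.92 ± 1.29. For each of these 3 genes the groups overlapped and the adjusted p of edgeR's test was 0.998. Jag2 was left out by the filter, at 0 to 136 RPM (median 27.2) in neighboring and 0 to 1.25 RPM (median 0.176) in non-neighboring pools, with 1789 and 13 reads. With no filter on low counts, edgeR tested all 10 members and called 0, and 3 of them had an unadjusted p under 0.05. These were Jag1, Jag2 (log2 fold change 7.13, p = 0.000433, adjusted p = 0.0925 in edgeR's test) and Hey1 (p = 0.00263, adjusted p = 0.176). Of the other untested members, Hes1 had 274 reads in neighboring and 44 in non-neighboring pools, Hey1 496 and 0, Notch3 6 and 43, and Lfng 1 and 1, while Notch1 had 224 in non-neighboring pools and fewer in neighboring pools.

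Other cell types moved with position in the pools. The oocyte genes summed to 856 to 8865 RPM (median 1582) in neighboring and 2.34 to 151 (median 66.4) in non-neighboring pools. Jag1 stood at 10.9 and 9.82 RPM per 1000 RPM of these genes, against 7.59 in bulk granulosa. The non-neighboring value rests on 23 Jag1 reads, with 4.32 RPM in pool 1 and at most 0.787 RPM in any other pool. Jag2 stood at 10.6 and 4.09 on this scale, against 9.83 in bulk granulosa. Without neighboring pools 4, 5 and 6, the Jag1 log2 fold change was 4.37, with p = 0.0162 and an adjusted p of 1.00 in edgeR's test. Genes of theca and interstitial cells (6 genes) had a summed median of 0.550 RPM in neighboring pools and 447 in non-neighboring pools, from 0 to 1357 and from 1.21 to 4004. Those of pericytes and smooth muscle (6 genes) had medians of 6.63 and 40.5 RPM, from 0.238 to 172 and from 0.469 to 3365. Notch3, a receptor gene known from these vessel-wall cells, had 4.93 RPM at most in a pool. Genes of the endothelium (6 genes) had medians of 7.39 and 48.4 RPM, from 2.48 to 8.92 and from 6.54 to 127. The 6 genes of each list had reads at both positions, so none was at 0. Their part in these results was not tested, and fewer cells of a type cannot be told apart from less RNA per cell in pools or bulk samples.

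In the 7 bulk granulosa libraries, Notch2 ranged from 23.5 to 43.7 RPM (median 36.8), the narrowest of the members with a median above 20 RPM. Heyl ranged from 0 to 66.02 RPM (median 38.9) and Hey2 from 0.207 to 127 RPM (median 24.1). Jag1 and Jag2 were at most 8.13 and 10.5 RPM. The single mESCs had the highest mean of Notch3 (1.63 log2, fresh) and Notch1 at 3.79 fresh and 3.07 after LCM, while the medians of Heyl and Hey2 were 0 RPM in both.

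The rest of the pathway was read from a list of 48 genes (49 identifiers). In the pools, 31 identifiers were tested, 0 were called, 13 had a higher and 18 a lower fitted level in neighboring pools, and the median log2 fold change was -0.07 (all genes, -0.01). The tested genes with the largest fitted differences were Spen, a corepressor gene (log2 fold change -2.82), and the coactivator genes Maml3 (2.65 ± 0.99 SE, p = 0.0145, adjusted p = 0.864 in edgeR) and Maml2 (2.54). The DNA-binding partner Rbpj was at -0.07 and the fringe gene Rfng at -1.11. Of the genes left out by the filter, the endothelial ligand gene Dll4 had 5 reads in neighboring and 343 in non-neighboring pools, Notch4 had 99 and 4, the fringe gene Mfng 495 and 0, Dll3 25 and 0, and Dll1 0 and 0.

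In the 44 SC3 oocytes the pathway genes of highest mean log2(RPM + 1), a scale not corrected for length, included Psenen (9.70 log2), a gamma-secretase subunit gene, and Dtx2 (9.02), a Deltex ubiquitin ligase gene. Rfng was at 5.78, Rbpj at 5.19, Mfng at 4.85 and Dll3 at 3.97, whereas Notch4, Dll1 and Dll4 were at 0.42, 0.16 and 0.10. By stage, identifiers past 1 log2 unit numbered 11 higher and 6 lower of 38 in SC3, 9 and 5 of 40 in SMART-Seq v4, 11 and 10 of 37 in DRaqL-SMART-Seq v4 and 12 and 9 of 41 in formalin. Over all genes, 32%, 33%, 35.2% and 27% were past it higher and 14.9%, 15.7%, 22.2% and 24.7% lower in these 4 chemistries. The counts lie near these shares. The list medians were 0.19, -0.01, -0.09 and -0.30. Mfng, which modifies Notch receptors as Lfng does, was higher in secondary-antral oocytes by 4.73, 5.32, 5.80 and 2.33 in these 4 chemistries. Dtx2 was higher by 1.32, 1.17, 2.68 and 2.16. Chosen after their values were seen, as genes past 1 log2 unit in the same direction in all 4, Aph1b, Furin and Neurl1a were also higher and Maml3 and Ncor1 lower, with Maml3 differing by -3.05, -1.32, -4.48 and -5.07. The share of all genes past that line in all 4 was not counted. By position, the identifiers past 1 log2 unit were 1 higher and 8 lower of 32 in SC3, 2 and 5 of 33 in SMART-Seq v4, 5 and 3 of 33 in DRaqL-SMART-Seq v4, 7 and 5 of 34 in formalin, 7 and 1 of 33 in LCM-seq, 2 and 4 of 35 in DRaqL-Smart-seq2, 3 and 2 of 31 in the same-mouse LCM and 1 and 16 of 31 in the dissociated cells. They are to be read against the shares of all genes given for the members, such as 46.9% lower in the dissociated cells.

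Over the means of 34 groups, the genes whose pattern was most like that of a member were found by Pearson's r among 11819 genes. For Jag1 they were Khdc3 (r = 0.975), Nlrp4f (0.973) and Cpsf4l (0.972), and for Jag2 Slc38a8 (0.955), Astl (0.952) and Tdrd1 (0.951). For Hey1 they were Fam151a (0.968), Gm527 (0.968) and Fbxo40 (0.966). Lower values were found for Hey2 with Chst8 (0.9005), for Heyl with Bok (0.840), for Notch2 with Dpyd (0.817) and for Hes1 with Gm10784 (0.790). The groups share chemistries, depths and cell types, so these values are descriptions.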

How the data were processed

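The deposited files hold raw read counts per gene, made by the authors from 3′-end reads within 10 kb of annotated 3′ ends. Per the submitters' processing notes, the authors used fastp 0.20.0, cutadapt 1.16, HISAT2 2.1.0, HTSeq 0.10.0 and featureCounts 2.0.1 on GRCm38. The exon and junction files hold deposited counts too. The count of reads on protein-coding genes set RPM, and log2 values used a pseudocount of 1. The authors pooled no replicates in these tables, and 0 columns belonged to samples of another series.

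Single-cell groups were described by their mean and SD over cells, and differences were counted only where a group mean reached 1 log2 unit. Pools were compared with edgeR 4.0.16 (TMM normalization, filterByExpr, quasi-likelihood test, Benjamini-Hochberg adjustment) in R 4.3.3, in a script tested on simulated data. DESeq2 1.42.0, other filters and scalings, and leaving out 1 pool at a time were alternatives. Sums of reads carry exact Poisson 95% intervals. Oocyte genes, granulosa genes, and genes of theca, pericytes and endothelium served as checks. Named were the members, and of the pathway list Dll1, Dll3, Dll4, Notch4, Mfng, Rfng, Rbpj, genes called in the pools, the 3 with the largest fitted difference there, the 3 with the highest mean in SC3 oocytes (1 is not reported here), and the genes of highest r. The members and lists were chosen with earlier results of these data known. Oocyte diameters were not used here. RefSeq promoter entries of Hes1, Hey1 and Heyl were not used here.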

Additional observations from a re-analysis of the deposited data

Results flagged for a closer look

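Of 61 combinations of a member and a group of 4 to 10 libraries, 9 held a library far from the others by Dixon's criterion. Chance flags about 1 in 20 such combinations. In primary oocytes of SMART-Seq v4, Jag2 was at 0 RPM in oocyte 3 (next lowest 19.0 RPM) and Hey1 at 19.7 RPM in oocyte 1 (next highest 2.18 RPM). In primary oocytes of DRaqL-SMART-Seq v4, oocyte 5 was lowest for both ligand genes, with Jag1 at 0 RPM (next 53.2 RPM) and Jag2 at 6.42 RPM (next 35.9 RPM). In formalin secondary-antral oocytes, oocyte 3 had the highest Jag2, 651 RPM (next 233 RPM), together with Hey1 at 0 RPM (next 12.0 RPM) and Hey2 at 0 RPM (next 6.83 RPM). Heyl was at 0 RPM in bulk granulosa library 2 (next 15.7 RPM). In neighboring pool 6, Hey1 was at 90.8 RPM (next 2.48 RPM), and that pool was among the 3 rich in oocyte RNA.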

How the results depend on the processing

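In the pools, edgeR called 0.453% of the genes tested (44 genes), and 0 of the members and 0 of the pathway genes. DESeq2 called 1.2% and 1 member, Jag1. Leaving out 1 pool at a time gave 0.0296% to 0.567% (3 to 56 genes), with the fewest without neighboring pool 5, then 8, 9 and 12 genes without neighboring pool 6, non-neighboring pool 3 and neighboring pool 4, and 13, 15, 18 and 27 without non-neighboring pools 7, 5, 4 and 1. Without the 3 neighboring pools rich in oocyte RNA, edgeR called 0 genes, with 406 at an unadjusted p under 0.05. A fit with the replicate number as a block called 0.0309% (3 genes) and 0 members. Pool numbers are shared between positions, and the values do not settle whether they mark pairs. Same-numbered pools had correlations of 0.0143 to 0.204, with 2 of 7 above 0.1. Of the 7 neighboring pools, 4 correlated best with their own number. By stage, Jag1 and Jag2 kept their sign in 31 of 31 alternative values each, and the Jag1 difference in SMART-Seq v4 was 0.80 within a library pool against 1.92. Over all members with no test, the sign was kept in 232 of 247 alternative values by stage, 345 of 381 by position and 269 of 281 by cell type.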
